A study of Mus musculus with 8 samples.

Results

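Cytosolic heat shock proteins and their partners were followed in mouse spinal cord through 10 genes, taken by symbol from the 47643 rows of a gene count table: Hspa1a, Hspa1b, Hspa8, Hsph1, Hsp90aa1, Dnajb1, Hspb1, Hspb8, Cryab and Bag3. All 10 were present, and all 10 passed the filter on low counts. RNA was sequenced from 8 C57BL/6 mice, 4 labelled homozygous and 4 labelled heterozygous, with 1 library per mouse. The labels give tamoxifen, injected at 100 mg/kg, as the agent that deletes Arf1, and the same treatment note stands on the samples of both genotypes. The product of Arf1 is a small GTPase of the Golgi, where it brings vesicle coats to the membrane, and the submitters' design note names its function in neurons as the subject. The mice were 2 to 10 months old, with neither age nor sex given for single animals. The labels name neither the Cre driver nor the cells in which it is active, and no wild-type or untreated library was among the 8. Each label carries its own animal number, so p-values measure the spread between these animals.

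Heat shock proteins bind unfolded protein chains and keep them from clumping. Hsp70 proteins work in an ATP-driven cycle in which a J-domain partner delivers the client and loads it, and an exchange factor of the Hsp110 or BAG family releases it. Hsp90 acts late in folding on kinases and steroid hormone receptors, while small heat shock proteins hold clients without using ATP. When proteins unfold, heat shock factor 1 binds repeated GAA units in the promoters of the inducible members and raises their transcription. In the spinal cord the small members are known from glia and from the cells' response to injury, and mutations of HSPB1, HSPB8 and BAG3 in people cause motor neuropathy or muscle disease.

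The promoter sequences are shown because they say which members carry the letters of the element through which heat shock acts. RefSeq gave a window from 250 bases before to 50 bases after the start (GRCm38.p6) for 7 of the 10 genes, and none for Hspa8, Hsp90aa1 and Cryab. A 2-unit heat shock element, searched on both strands as GAANNTTC or TTCNNGAA, was present in 6 of these 7 genes and not in Dnajb1, against 15.1% of 32851 windows of the same length. A 3-unit element, GAANNTTCNNGAA or TTCNNGAANNTTC on the other strand, was present in Hsph1 alone among the 7 genes and in 0.603% of all windows. It contains the 2-unit element, so both searches overlap. The first base of the element lay 104 bases before the start base in Hspa1a and Hspa1b, and 117 and 97 bases before it in Hspb1. In Hspb8 it lay 2 bases after the start base, and in Bag3 42 bases after it. In Hsph1 a 2-unit element lay 54 bases before the first of 2 RefSeq start bases. The 3-unit element began 15 bases after that start base. GENCODE M21 begins the gene further upstream, at 149636376. A match is a run of letters and not a measured binding site. The Hspa1a and Hspa1b windows were identical at 296 of 300 positions (98.7%), so 1 of them is shown. Capitals mark the elements in the 250 bases before the start of 3 genes and in 30 bases after that of Hsph1, each read 5′ to 3′ on its gene's strand.
Hspa1a, chr17:34972157-34972406, minus strand: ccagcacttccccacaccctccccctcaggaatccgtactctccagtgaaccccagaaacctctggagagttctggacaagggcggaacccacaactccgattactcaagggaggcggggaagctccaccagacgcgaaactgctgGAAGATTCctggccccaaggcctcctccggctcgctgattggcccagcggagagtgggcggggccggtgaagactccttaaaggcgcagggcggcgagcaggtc
Hspb1, chr5:135887669-135887918, plus strand: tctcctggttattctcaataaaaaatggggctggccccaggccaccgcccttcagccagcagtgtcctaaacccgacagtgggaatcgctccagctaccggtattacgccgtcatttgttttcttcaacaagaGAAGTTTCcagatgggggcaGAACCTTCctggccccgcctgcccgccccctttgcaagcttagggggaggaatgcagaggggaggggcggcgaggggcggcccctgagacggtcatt
Hsph1, chr5:149636316-149636565, minus strand: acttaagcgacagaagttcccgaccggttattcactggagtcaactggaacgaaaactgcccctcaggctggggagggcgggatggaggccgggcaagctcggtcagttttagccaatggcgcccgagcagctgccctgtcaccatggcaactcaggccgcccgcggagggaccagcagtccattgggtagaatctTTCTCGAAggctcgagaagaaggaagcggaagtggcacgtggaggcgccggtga
Hsph1 after the start, chr5:149636280-149636309, minus strand: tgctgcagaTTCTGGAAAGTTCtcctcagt

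Arf1, the gene to be deleted, was at 307, 22.5, 22.9 and 39.9 CPM (TMM-scaled counts per library size, the unit of levels below unless TPM is named) in homozygous replicates 1 to 4. In heterozygous replicates 1 to 4 it was at 334, 296, 322 and 303 CPM. The library labelled homozygous replicate 1 therefore had an Arf1 level within the heterozygous range, against its label. The test of each member is given over all 8 libraries and over the 7 without it, a choice made with that level known. Libraries held 26321522 to 37879426 expected counts in the homozygous and 29857210 to 37803594 in the heterozygous group. Tissue markers were present throughout: 11 neuron genes summed to 7302 to 8113 CPM in homozygous and 7437 to 8819 CPM in heterozygous libraries, and 9 oligodendrocyte genes to 7907 to 15490 CPM and 10030 to 11480 CPM. Heterozygous replicate 1 stood apart in 11 skeletal muscle markers, which summed to 749 CPM there and to 9.68 to 94.8 CPM in the other 7 libraries. RNA integrity was 8 in homozygous replicate 4 and 9 in the other 7, and homozygous replicate 3 had 2.44% ribosomal bases against 0.10% to 0.34% elsewhere. Mapped reads were 92.36% in homozygous replicate 3 and 98.33% to 98.53% in the other 7. The median 5 prime to 3 prime bias was 0.505 in heterozygous replicate 4 and 0.413 to 0.441 in the other 7. The part of these values in the chaperone levels was not tested.

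Compared per length, Hspa8 and Hsp90aa1 were the most abundant members and the inducible Hspa1a and Hspa1b the least. Hspa8, the constitutive Hsp70 Hsc70, averaged 1726 ± 351 TPM in homozygous and 2182 ± 293 TPM in heterozygous libraries (SD, n = 4 each). Hsp90aa1, the inducible form of cytosolic Hsp90, which neurons also express without stress, averaged 626 ± 92.1 TPM and 734 ± 90.1 TPM. The TPM scale was itself shifted between the genotypes. With 8 libraries the median log2 fold change of all tested genes on log2(TPM + 1) was -0.14. TPM therefore serves here to order the members, not to compare genotypes. On TMM-scaled counts edgeR gave log2 fold changes of -0.19 for Hspa8 and -0.07 for Hsp90aa1. Among heterozygous libraries the order of mean TPM was Hspa8, Hsp90aa1, Hsph1, Cryab, Dnajb1, Hspb8, Hspb1, Bag3, Hspa1b and Hspa1a. The ranges of neighbours overlapped between Hsph1 (253 TPM) and Cryab (244 TPM), between Hspb8 (30.8 TPM) and Hspb1 (27.7 TPM), and along Bag3 (11.7 TPM), Hspa1b (10.01 TPM) and Hspa1a (7.51 TPM). The other neighbours did not overlap. In bulk tissue fewer cells of a type and less RNA per cell cannot be told apart.

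No member passed edgeR's quasi-likelihood test at an adjusted p of 0.05 over all 8 libraries (0 of 10), as no gene of 16511 did (0% called). DESeq2 and limma-voom also called 0 of the 10. At an unadjusted p under 0.05 edgeR gave 2 members, Hsph1 and Cryab, both lower in homozygous libraries, and 0 higher, against 8.9% of all genes lower and 7.87% higher. Over the 7 libraries edgeR called 0 of 10 members, against 1.22% of 16560 genes, and DESeq2 and limma-voom again called 0. The unadjusted count was then 3 lower, Hspa8, Hsph1 and Cryab, and 1 higher, Hspb1, where 9.94% of all genes were lower and 9.51% higher. The log2 fold change, homozygous over heterozygous, was negative for 8 of the 10 in both sets. Its median over the members was -0.23 with 8 libraries and -0.30 with 7, where the median of all tested genes was 0.00 in each. Leaving out heterozygous replicate 1 from the 7 moved the members' median to -0.19, with 8 of 10 still negative. With CPM of the 8 libraries no member's groups were free of overlap (0 of 10), against 4.66% of all genes lower and 4.61% higher. Without homozygous replicate 1, 3 members were lower in every homozygous library than in every heterozygous one, against 8.82% of all genes, and 0 were higher, against 9.76%. On the TPM scale Dnajb1 and Cryab did not overlap between the groups of 4 (2 of 10, both lower), against 13.6% of all genes lower and 0.751% higher.

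**Figure D1:**
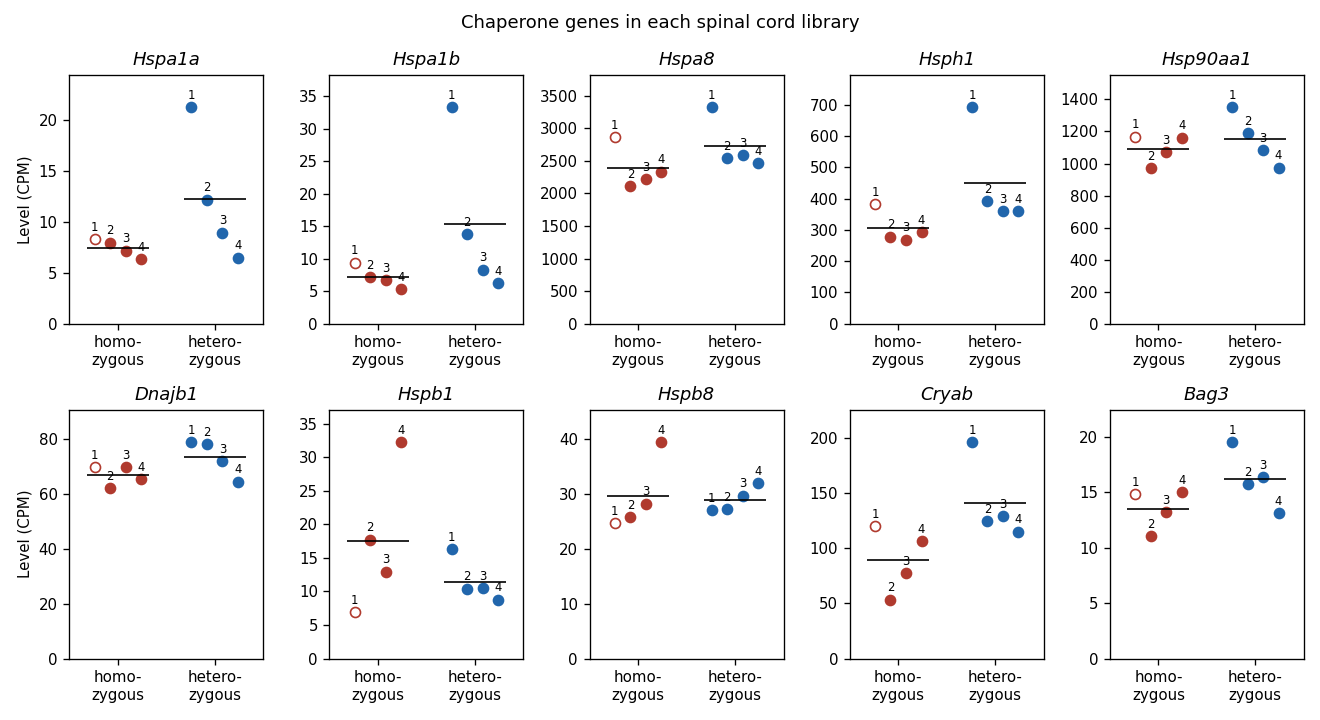
Level of each chaperone gene in CPM, 1 panel per gene with axes from 0, homozygous libraries in red and heterozygous in blue; numbers are replicates, lines are means of 4 and the open circle is the library labelled homozygous replicate 1. Heterozygous replicate 1 is the highest point for 8 of the 10 genes, and homozygous replicate 4 is the highest for Hspb1 and Hspb8.

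Hspa1a and Hspa1b, the stress-inducible Hsp70 genes, lie side by side on the minus strand of chromosome 17 (34969190 to 34972156 and 34956436 to 34959238, GRCm38). Hspa1a was at 8.33, 7.99, 7.20 and 6.36 CPM in homozygous replicates 1 to 4 and at 21.3, 12.2, 8.97 and 6.51 CPM in heterozygous replicates 1 to 4. Hspa1b was at 9.40, 7.18, 6.71 and 5.27 CPM in the homozygous and at 33.3, 13.8, 8.30 and 6.21 CPM in the heterozygous libraries. The homozygous libraries lay close together, while the heterozygous ones spread from the homozygous range to several times above it, so the groups overlapped for both genes. The coefficient of variation of Hspa1b was 24% in homozygous and 80.3% in heterozygous libraries, and that of Hspa1a 11.8% and 52.8%. Over 8 libraries the log2 fold change was -0.71 (SE 0.33, edgeR adjusted p = 0.314) for Hspa1a and -1.10 (SE 0.53, edgeR adjusted p = 0.341) for Hspa1b. Over the 7 it was -0.77 (SE 0.38, edgeR adjusted p = 0.317) and -1.27 (SE 0.64, edgeR adjusted p = 0.332), and neither gene passed in either set. Heterozygous replicate 1 carried much of this value, since without it the 8-library values became -0.30 for Hspa1a and -0.39 for Hspa1b, and the 7-library values -0.36 and -0.55.

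The 2 genes share sequence, and 47.1% of the 100-base windows of the Hspa1a transcript also occur in Hspa1b, so the division of reads between them is uncertain. Their sum does not depend on that division. It was 17.7, 15.2, 13.9 and 11.6 CPM in homozygous replicates 1 to 4, against 54.6, 26.0, 17.3 and 12.7 CPM in heterozygous replicates 1 to 4. As log2 fold change the sum had -0.92 (SE 0.45, edgeR adjusted p = 0.354) over 8 libraries and -1.03 (SE 0.54, edgeR adjusted p = 0.356) over 7. Hspa1a took 47% to 54.7% of the pair's counts in homozygous and 39% to 51.9% in heterozygous libraries, lowest in heterozygous replicate 1, where the sum was highest.

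Hspa8 (chromosome 9, 40800984 to 40810087, plus strand) gave the most counts of all members. It was at 2865, 2115, 2222 and 2332 CPM in homozygous replicates 1 to 4 and at 3322, 2537, 2587 and 2464 CPM in heterozygous replicates 1 to 4. Homozygous replicates 2 to 4 lay below every heterozygous library, and homozygous replicate 1 lay among them. For Hspa8 the log2 fold change was -0.19 (SE 0.12, edgeR adjusted p = 0.43) over 8 libraries and -0.30 (SE 0.11, edgeR adjusted p = 0.186) over 7. These values were -0.09 and -0.19 without heterozygous replicate 1. The exact two-sided permutation p was 0.229 with 8 libraries and 0.0571 with 7, which is the smallest that 3 against 4 can give. Of its transcript's 100-base windows 31.6% occur in other genes, mostly the pseudogene Gm15459, which held 8.07 to 14.5 CPM per library.

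Hsph1, the Hsp110 protein that frees ADP from Hsp70 and so lets clients go, was the member with the smallest p over all 8 libraries. It lies on the minus strand of chromosome 5 (149614287 to 149636376), and none of its 100-base windows occurs in another gene. It was at 382, 278.5, 269 and 292 CPM in homozygous replicates 1 to 4 and at 692, 392, 359.8 and 358.8 CPM in heterozygous replicates 1 to 4. Homozygous replicate 1 lay inside the heterozygous range, and the other 3 homozygous libraries lay below it. Means were 305 ± 51.9 CPM in homozygous and 451 ± 161 CPM in heterozygous libraries (SD, n = 4 each). The log2 fold change was -0.56 (SE 0.23, 95% interval -1.08 to -0.04, edgeR adjusted p = 0.271) over 8 libraries and -0.69 (SE 0.24, edgeR adjusted p = 0.178) over 7. Without heterozygous replicate 1 the first value was -0.28 (edgeR adjusted p = 0.295). With both libraries left out, Hsph1 fell by 0.40 on the log2 scale (SE 0.073, edgeR adjusted p = 0.0379). It was then 1 of 10 members called, against 1.41% of 16425 genes, or 0.974% counting lower ones alone. That set holds the 6 libraries of the authors' own gene tables, but their deposited comparison does not list Hsph1. The smaller fold came with a much smaller spread, since the 3 other heterozygous libraries lay within 359 to 392 CPM.

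Hsp90aa1 (chromosome 12, 110690605 to 110702728, minus strand) was at 1168, 971, 1070 and 1161 CPM in homozygous and at 1351, 1191, 1085 and 974 CPM in heterozygous replicates 1 to 4. The groups overlapped in most of their range. Hsp90aa1 had a log2 fold change of -0.07 (SE 0.10, edgeR adjusted p = 0.741) over 8 libraries, with a 95% interval of -0.30 to 0.15, and of -0.11 (SE 0.11, edgeR adjusted p = 0.63) over 7. It was 0.01 and -0.02 without heterozygous replicate 1, and leaving out homozygous replicate 2 or 4 or heterozygous replicate 4 also moved the 7-library value, to -0.04, -0.18 and -0.18. Of its transcript's windows 47.5% occur in other genes, mostly Gm12346, which held 2.85 to 5.72 CPM. Dnajb1, the J-domain protein Hsp40 that hands clients to Hsp70 (chromosome 8, 83608193 to 83612653, plus strand), varied least of all, by 1.27-fold between its highest and lowest library. It was at 69.8, 62.1, 69.8 and 65.5 CPM in homozygous and at 78.9, 78.2, 71.9 and 64.5 CPM in heterozygous replicates 1 to 4. Only heterozygous replicate 4 fell inside the homozygous range. Its log2 fold change was -0.14 (SE 0.075, edgeR adjusted p = 0.381) over 8 libraries and -0.16 (SE 0.084, edgeR adjusted p = 0.328) over 7. Bag3, which links Hsp70 to the small heat shock protein Hspb8 and to autophagy (chromosome 7, 128523616 to 128546981, plus strand), was at 14.8, 11.1, 13.2 and 15.0 CPM in homozygous replicates 1 to 4. In heterozygous replicates 1 to 4 it was at 19.5, 15.7, 16.4 and 13.1 CPM. Heterozygous replicate 4 again lay inside the homozygous range. Bag3 had a log2 fold change of -0.26 (SE 0.13, edgeR adjusted p = 0.348) over 8 libraries and of -0.31 (SE 0.15, edgeR adjusted p = 0.286) over 7. Without heterozygous replicate 1 these were -0.15 and -0.20, and without homozygous replicate 2 they were -0.17 and -0.20.

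The 3 small heat shock proteins did not share a direction. Cryab, alpha B-crystallin, which is abundant in oligodendrocytes and in muscle, was at 120, 53.4, 77.3 and 106 CPM in homozygous replicates 1 to 4. In heterozygous replicates 1 to 4 it was at 196, 124.5, 129 and 115 CPM. Homozygous replicates 2 to 4 lay below all heterozygous libraries, and homozygous replicate 1 exceeded only heterozygous replicate 4. The gene lies on chromosome 9 (50751325 to 50756636, plus strand) and shares no 100-base window with another gene. Its log2 fold change was -0.66 (SE 0.27, 95% interval -1.29 to -0.03, edgeR adjusted p = 0.279) over 8 libraries and -0.84 (SE 0.27, edgeR adjusted p = 0.165) over 7. The exact two-sided permutation p was 0.0571 in both sets, above the smallest possible 0.0286 with 8 libraries and equal to the smallest possible with 7.

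Hspb1, the mouse Hsp25, which motor neurons and reactive astrocytes are known to make (chromosome 5, 135887919 to 135889563, plus strand), had the opposite sign. It was at 6.92, 17.7, 12.9 and 32.3 CPM in homozygous replicates 1 to 4, against 16.3, 10.4, 10.5 and 8.77 CPM in heterozygous replicates 1 to 4. Homozygous replicate 1 was the lowest of the 8 libraries, and homozygous replicates 2 and 4 were the highest. Hspb1 had a log2 fold change of 0.60 (SE 0.45, edgeR adjusted p = 0.525) over 8 libraries and of 0.87 (SE 0.34, edgeR adjusted p = 0.218) over 7. Over the 6 libraries without heterozygous replicate 1 it was 1.09 (SE 0.33, edgeR adjusted p = 0.164). Homozygous replicate 4 carried much of it: without that library the log2 fold change was 0.12 in place of 0.60 (edgeR adjusted p = 0.891) and 0.41 in place of 0.87 (edgeR adjusted p = 0.391). The authors' deposited table, which lists 185 genes from the same 6 libraries, held Hspb1 as its sole member of the 10, with a log2 fold change of 1.03 and a false discovery rate of 0.0267. Both estimates had the same sign, and only that of the authors' deposited table is under 0.05. Of the windows of its transcript 42.7% also occur in Hsp25-ps1, which held 0.022 to 0.085 CPM.

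Hspb8, the partner of Bag3 (chromosome 5, 116408491 to 116422864, minus strand), was at 24.7, 25.8, 28.2 and 39.5 CPM in homozygous and at 27.1, 27.2, 29.7 and 31.99 CPM in heterozygous replicates 1 to 4. The homozygous libraries surrounded the heterozygous ones. The log2 fold change was 0.03 (SE 0.14, edgeR adjusted p = 0.943, 95% interval -0.28 to 0.34) over 8 libraries and 0.11 (SE 0.14, edgeR adjusted p = 0.703) over 7. Its sign turned without homozygous replicate 4, to -0.15 over the other 7 libraries. Homozygous replicate 4 also had the highest level of the astrocyte filament gene Gfap, at 1352 CPM, against 302.5 to 594 CPM in the other homozygous and 316 to 417 CPM in the heterozygous libraries. The 9 astrocyte markers, Gfap among them, summed to 4386 CPM in homozygous replicate 4, inside the heterozygous range of 3924 to 4574 CPM. Over the 7 libraries 4 of these 9 had positive and 5 had negative log2 fold changes. The same library had the highest summed oligodendrocyte markers, at 15490 CPM. Their part in the Hspb1 and Hspb8 levels was not tested.

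**Figure D2:**
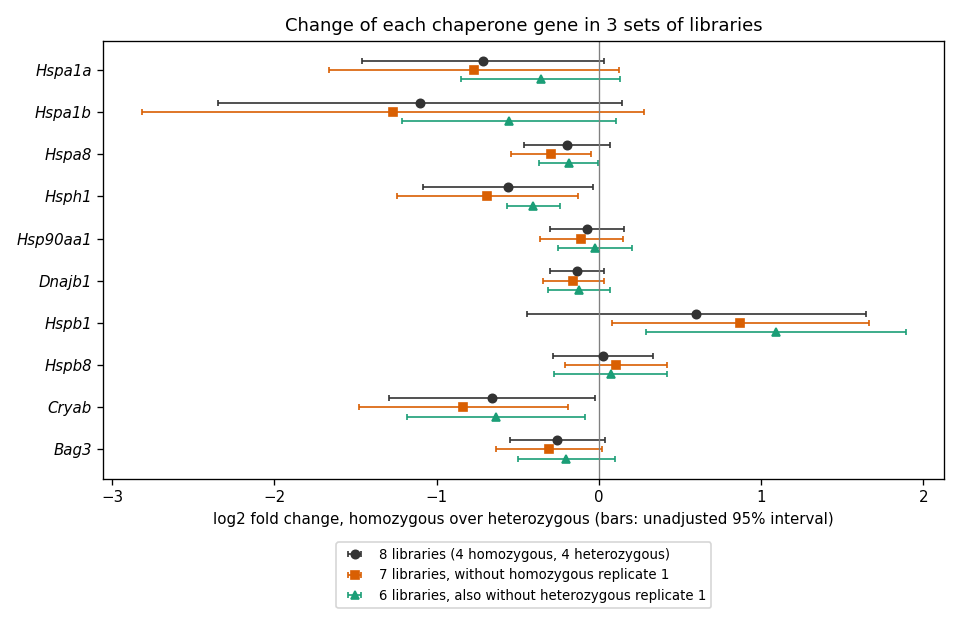
Log2 fold change of each chaperone gene, homozygous over heterozygous, from edgeR with 8, 7 and 6 libraries; bars are unadjusted 95% intervals. Intervals narrow for Hsph1 and shift towards 0 for Hspa1a and Hspa1b once heterozygous replicate 1 is left out, and Hspb1 alone has its 3 estimates above 0.5.

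Cryab and Hspb1 differed in their pattern over the libraries. The ratio of Cryab to Hspb1 CPM was 17.3, 3.02, 5.98 and 3.29 in homozygous replicates 1 to 4, against 12, 12, 12.3 and 13.1 in heterozygous replicates 1 to 4. The heterozygous libraries were nearly equal, heterozygous replicate 1 included, while homozygous replicates 2 to 4 lay below them and homozygous replicate 1 above. The exact two-sided permutation p was 0.143 over 8 libraries and 0.0571 over the 7, the smallest possible there. This ratio was chosen after the values of both genes had been seen.

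Between libraries, the main feature was heterozygous replicate 1. It was the highest library for 8 of the 10 genes, and its mean z-score of log2-CPM over the members was 1.47, against -0.45 to 0.35 in the other heterozygous libraries. In homozygous replicates 1 to 4 the mean z-score was -0.08, -0.91, -0.51 and 0.06. Against the mean of the other 3 heterozygous libraries, the level in heterozygous replicate 1 was 3.54-fold for Hspa1b, 2.31-fold for Hspa1a and 1.87-fold for Hsph1. It was 1.65-fold for Hspb1, 1.60-fold for Cryab, 1.31-fold for Hspa8, 1.30-fold for Bag3, 1.25-fold for Hsp90aa1, 1.10-fold for Dnajb1 and 0.913-fold for Hspb8. The inducible Hsp70 pair thus stood highest, as a description of 1 library. The order did not separate inducible from constitutive members, since the inducible Hsp90aa1 stood below the constitutive Hspa8. All 11 skeletal muscle markers were detected in every library and had negative log2 fold changes with 8 libraries, with a median of -2.33. Without homozygous replicate 1 alone all 11 stayed negative, with a median of -3.32. With heterozygous replicate 1 left out as well, 7 of the 11 were positive and the median was 0.24. The sign of the median thus turned between the 7 libraries and the set also without heterozygous replicate 1, where 4 of the 11 stayed negative. This list was not read with heterozygous replicate 1 alone left out. The markers' part in the chaperone levels was not tested. Cryab, Hspb1, Hspb8 and Bag3 are known to be abundant in muscle as well.

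**Figure D3:**
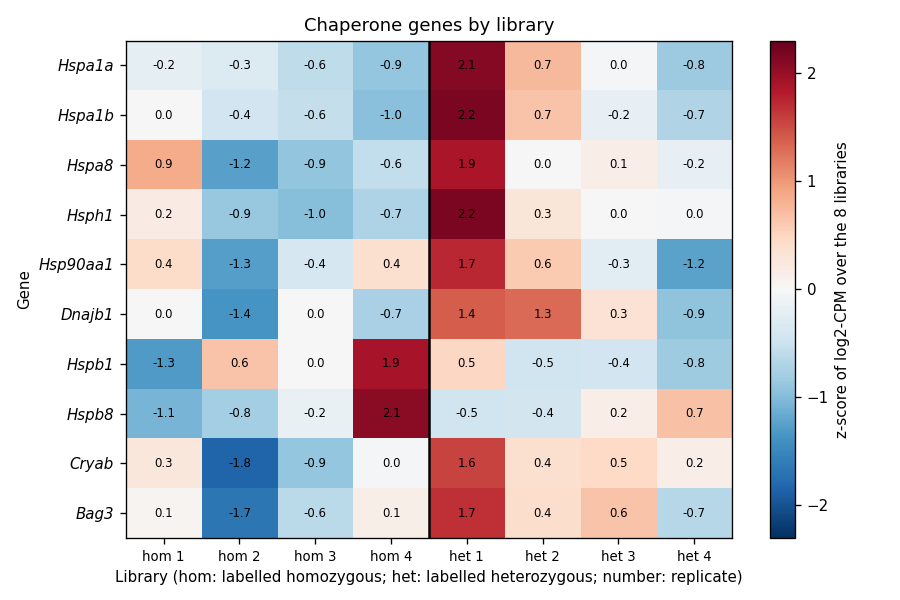
Z-score of log2-CPM of each chaperone gene (rows) in each library (columns, homozygous left of the line, heterozygous right), computed per gene over 8 libraries. Heterozygous replicate 1 is above the gene's mean in all rows but Hspb8, while Hspb1 and Hspb8 are highest in homozygous replicate 4.

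**Figure D4:**
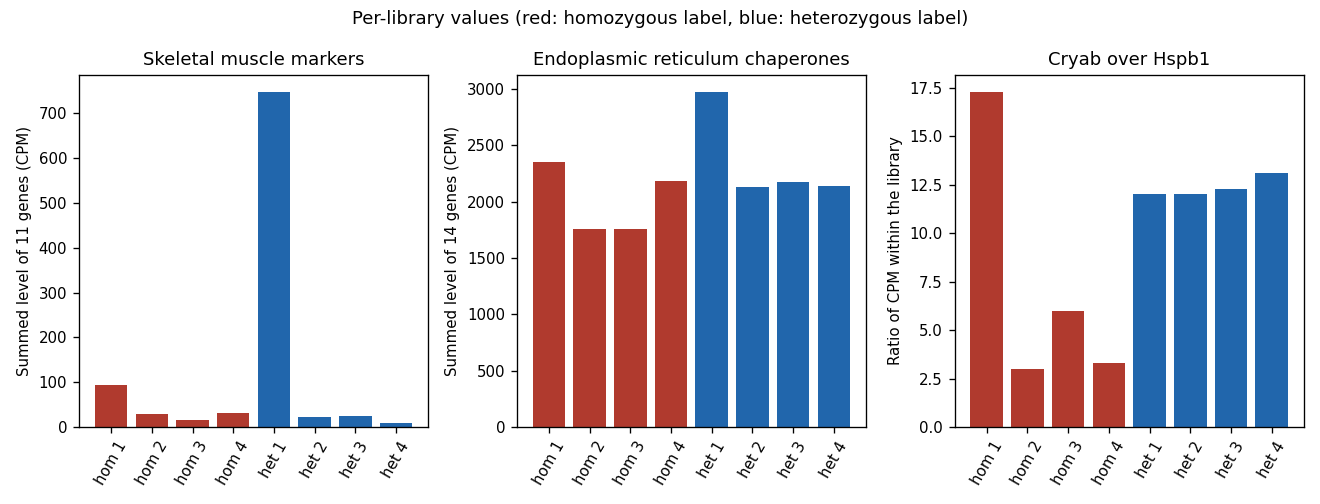
Per-library summed CPM of 11 skeletal muscle markers, summed CPM of 14 endoplasmic reticulum chaperones, and the ratio of Cryab to Hspb1 CPM, with homozygous libraries in red and heterozygous in blue. The muscle sum is 749 CPM in heterozygous replicate 1 and at most 94.8 CPM elsewhere, and the ratio lies between 12 and 13.1 in the heterozygous libraries.

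The profile most like the members' mean was sought among 10052 genes by the root-mean-square difference of z-scores over the 8 libraries. It was that of Xbp1 (0.301), followed by Manf (0.305), Sdf2l1 (0.306), Vopp1 (0.314) and Tmem65 (0.317). Xbp1 was at 85.9, 69.1, 75.2 and 81.5 CPM in homozygous and at 111, 86.2, 83.3 and 75.1 CPM in heterozygous replicates 1 to 4. The members' own distances from their mean ran from 0.355 for Bag3 to 0.535 for Dnajb1 in 8 genes, with 1.10 for Hspb1 and 1.16 for Hspb8. The genes most like the Hspa1a and Hspa1b sum were Spred2 (0.189), Fpgt (0.204) and Bdnf (0.222). Bdnf, a neurotrophin gene, was at 31.2, 28.0, 32.3 and 26.0 CPM in homozygous and at 61.3, 37.2, 33.1 and 28.0 CPM in heterozygous replicates 1 to 4. All 8 of these genes were highest in heterozygous replicate 1, and 8 libraries are few for ranking profiles.

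The rest of the chaperone network was read from lists of genes by role, with values from the 7 libraries unless 8 are named. In both sets edgeR called none of their genes. The counts at an unadjusted p under 0.05 stand against 9.94% of all genes lower and 9.51% higher with 7 libraries, and no list was tested as a group. Among 7 other cytosolic Hsp70 and Hsp110 genes the median log2 fold change was -0.18 (-0.17 with 8 libraries), and 6 were negative, with 4 lower and 1 higher at an unadjusted p under 0.05. Hspa4l, an Hsp110 relative, had -0.42 (edgeR adjusted p = 0.0885), and Hspa12b, a distant Hsp70 of endothelium, had -0.69 (edgeR adjusted p = 0.103). Without heterozygous replicate 1 Hspa12b fell by 0.82 on the log2 scale (edgeR adjusted p = 0.04997). The 8 endothelial markers, all with negative values, summed to 149 to 238 CPM in homozygous and 206.5 to 303 CPM in heterozygous libraries, and their part in Hspa12b was not tested. The 7 genes together summed to 780, 713, 682 and 719.5 CPM in homozygous replicates 1 to 4 and to 774 to 908 CPM in heterozygous libraries. Of 7 other small heat shock proteins 4 were tested, since Hspb9, Cryaa and Odf1 were too low. Hspb7, a small heat shock protein of striated muscle, had -2.43 (edgeR adjusted p = 0.465), and Hspb3 had 0.50 (edgeR adjusted p = 0.534). Hspb7 was at 9.59 CPM in heterozygous replicate 1 and at 0.183 to 1.88 CPM in all others, and without that library its value was 0.46.

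Partners of Hsp70 and Hsp90 were nearer to 0. The medians were -0.02 for 13 other J-domain proteins, 0.05 for 5 other BAG proteins and -0.07 for 17 Hsp90 and Hsp70 cochaperones, and -0.01, 0.05 and -0.06 with 8 libraries. The 17 included Hsp90ab1, which is the constitutive cytosolic Hsp90 and not a cochaperone, at -0.17 (edgeR adjusted p = 0.319). At an unadjusted p under 0.05, 3 of the J-domain proteins were lower, as were 3 of the cochaperones, while 2 cochaperones were higher, against 9.94% of all genes lower and 9.51% higher. Dnajb2, a J-domain protein of neurons, had -0.27 (edgeR adjusted p = 0.136), Dnaja1 had -0.23 (edgeR adjusted p = 0.231), Bag4 had 0.11 and Bag2 had -0.18. A pair of cochaperones of the steroid receptor complex pointed in opposite directions: Fkbp4 had -0.36 (edgeR adjusted p = 0.0903) and Fkbp5, a glucocorticoid-induced gene, had 1.03 (edgeR adjusted p = 0.121). Fkbp5 was at 70.8, 160, 93.4 and 77.8 CPM in homozygous replicates 1 to 4, against 66.7, 39.7, 48.0 and 61.2 CPM in heterozygous replicates 1 to 4, with no overlap. The authors' deposited table lists Fkbp5 with a log2 fold change of 1.07 and a false discovery rate of 0.00311. The 5 tested of 6 heat shock factors and their regulator had a median of -0.03, with Hsf1 at -0.19 (edgeR adjusted p = 0.467) and its binding protein gene Hsbp1 at 0.10.

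The last lists were the cytosolic chaperonin, mitochondrial chaperones and proteases, and the chaperones of the endoplasmic reticulum. The 8 subunits of the cytosolic chaperonin TRiC had a median of -0.06, with Cct2 at 0.10 and Cct8 at -0.07. The 9 genes of mitochondrial chaperones and proteases had a median of -0.06. Among them were the protease gene Clpp at 0.22 (edgeR adjusted p = 0.118) and Hspd1, mitochondrial Hsp60, at -0.20 (edgeR adjusted p = 0.197). The 14 endoplasmic reticulum chaperones had a median of -0.32 (-0.24 with 8 libraries), and 13 of them were negative. Of these 14, 0 passed edgeR's test, and 5 were lower and 1 higher at an unadjusted p under 0.05, against 9.94% and 9.51% of all genes. Without heterozygous replicate 1 the median of the 14 was -0.18. Pdia4, a disulfide isomerase, had -0.66 (edgeR adjusted p = 0.0858) and Dnajc3, a J-domain partner of Hspa5, had -0.32 (edgeR adjusted p = 0.131). Hspa5, the Hsp70 of this compartment, was at 425, 273, 280 and 385 CPM in homozygous replicates 1 to 4, against 599, 376, 365 and 345 CPM in heterozygous replicates 1 to 4. The 14 genes summed to 2351, 1760, 1757 and 2180 CPM in the homozygous and to 2976, 2128, 2176 and 2136 CPM in the heterozygous libraries, so that heterozygous replicate 1 was the highest library here too.

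**Figure D5:**
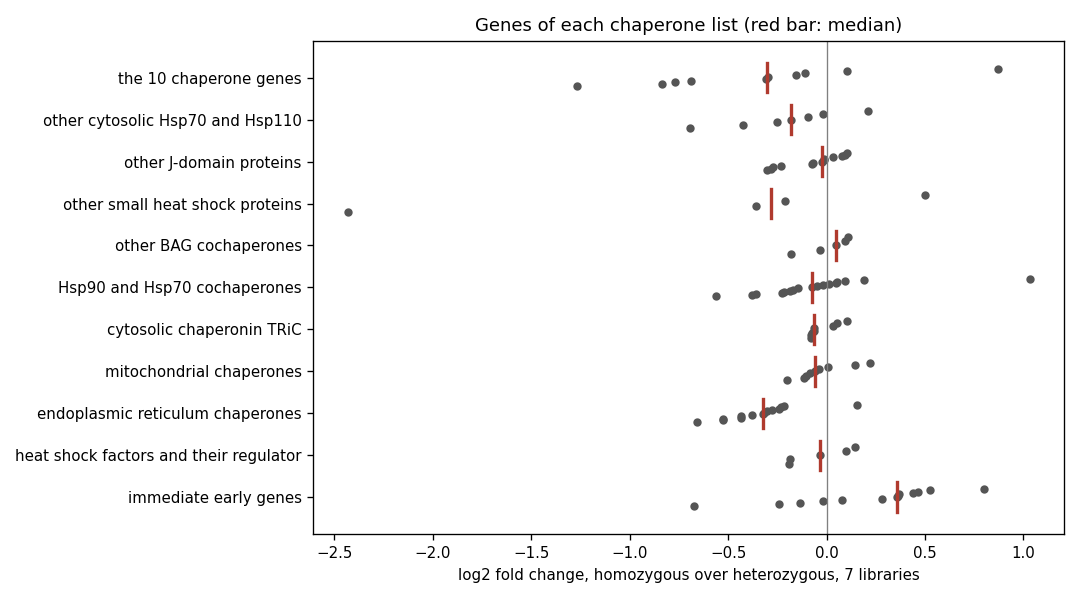
Log2 fold change, homozygous over heterozygous over 7 libraries, of each tested gene (points) in the 10 chaperone genes and in lists of other chaperones and immediate early genes; red bars are medians. The endoplasmic reticulum chaperones and the 10 genes have medians near -0.3, the chaperonin, mitochondrial, J-domain and BAG lists lie near 0.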

How the data were processed

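Spinal cord RNA of 8 mice, 4 labelled homozygous and 4 heterozygous, was sequenced. Per the submitters' processing notes, cutadapt, STAR, Picard and RSEM were used with mm10. For their versions, the annotation and the strand setting: not given in the sources used here. Per gene, the authors deposited expected counts and TPM, per the file headers. A deposited table of the authors' comparison holds log2 fold changes, p-values and false discovery rates, with unstated settings. Percent mapped, percent ribosomal bases and other quality values stand in a deposited report of the sequencing.

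Expected counts were rounded. The genotypes were compared with edgeR 4.0.16 (R 4.3.3; TMM, filterByExpr, robust quasi-likelihood fit, Benjamini-Hochberg over all tested genes, threshold 0.05). CPM are TMM-scaled over 8 libraries, with 0.1 added for log2-CPM and z-scores. Intervals are unadjusted and cover 95%. For single genes the exact permutation test was two-sided, on log2-CPM. Groups follow the genotype label; labels pair no animals. Members, gene lists and the set of 7 libraries were chosen with earlier results of these data known. Named were all members, called genes and the 2 smallest p of each chaperone list. The most similar profiles were also named, from genes with a mean log2-CPM of at least 3, predicted genes left out. Hsp90ab1, Hspa5 and Gfap values were added after they had been seen. Positions come from GENCODE M21 (GRCm38) and promoters from RefSeq. Library totals set the depth: at 26321522 to 37879426 counts, members had 161.6 or more expected counts in each library. Counting error was not compared with the spread between animals. Alternatives were other scalings, filters, DESeq2 1.42.0, limma-voom and limma 3.58.1 on log2(TPM + 1), a fit that was not robust, the log2-CPM of Xist as a covariate, Hspa1a and Hspa1b summed, an adjusted p of 0.1 and each library left out. The procedure was also run on simulated counts, but the outcome is not given here and no result rests on it. Python 3.11.15, pandas 2.3.3 and matplotlib 3.10.9 drew the figures.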

Additional observations from a re-analysis of the deposited data

Results flagged for a closer look

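For 2 genes, heterozygous replicate 1 stood far from the other heterozygous libraries. The gap to its nearest neighbour, divided by the range of the group on the log2-CPM scale, was 0.837 for Hspa8 and 0.864 for Hsph1, both above Dixon's 95% critical value for 4 samples. Chance flags about 1 in 20 groups. Hspa8 was at 3322 CPM there and at 2464 to 2587 CPM in the other 3, and Hsph1 at 692 CPM and at 358.8 to 392 CPM.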

How the results depend on the processing

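Over 8 libraries the count of members called was 0 under every alternative run, although the count over all genes was 679 with DESeq2, 63 with no filter and 0 with edgeR. Over 7 libraries it was 0 except with limma on log2(TPM + 1), which called 4 members, and without heterozygous replicate 1, which called 1; leaving out single libraries gave 0 to 1. The 4 were Hspa8 (-0.48, limma adjusted p = 0.0267), Hsph1 (-0.87, 0.047), Dnajb1 (-0.37, 0.0253) and Cryab (-1.07, 0.0466), where limma called 2190 of 16560 genes and the median of all genes moved to -0.18. With 8 libraries on that scale the median of all genes was -0.14 and limma called 0 members. All 7-library DESeq2 calls numbered 1081, against 202 with edgeR, and included none of the members. Signs turned for Hsp90aa1 and Hspb8 only: over 8 libraries Hsp90aa1 was 0.012 without heterozygous replicate 1, and Hspb8 was -0.021 with library totals alone, -0.17 on log2(TPM + 1), -0.049 with the Xist covariate, -0.0049 and -0.0023 without heterozygous replicate 1 or 2, and -0.15 without homozygous replicate 4 (leave-one-out range -0.15 to 0.11). Over 7 libraries Hspb8 was -0.13 on log2(TPM + 1) and -0.11 without homozygous replicate 4 (leave-one-out range -0.11 to 0.23). Hspb1 was 0.35 with the Xist covariate, 0.39 with limma-voom and 0.25 on log2(TPM + 1) over 8 libraries, and 0.56 on the last over 7. The causes were not tested. No paired analysis was possible because the labels give each animal its own number and no pairing; the replicate numbers only name libraries.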

Other observations

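Immediate early genes, the first genes that stimulated cells transcribe, were read beside the chaperones as another fast response. Of 13 genes 9 had positive log2 fold changes over the 7 libraries, with a median of 0.36, and edgeR called 0 of them at an adjusted p of 0.05, with 7 higher at an unadjusted p under 0.05, against 9.51% of all genes. With 8 libraries the median was 0.28, edgeR called 0, and 5 were higher at an unadjusted p under 0.05, against 7.87% of all genes. Junb was at 23.6, 38.4, 48.0 and 32.9 CPM in homozygous replicates 1 to 4, against 24.5, 28.1, 18.3 and 20.5 CPM in heterozygous replicates 1 to 4 (0.80, SE 0.17, edgeR adjusted p = 0.0601). Fos was at 44.9, 55.5, 57.5 and 54.0 CPM in the homozygous and at 46.5, 43.8, 37.7 and 33.7 CPM in the heterozygous libraries (0.46, SE 0.10, edgeR adjusted p = 0.0634). Without heterozygous replicate 1 Fos rose by 0.54 (edgeR adjusted p = 0.0365).

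Cell type markers were read in the same libraries. With 8 libraries edgeR called 0 of 82 tested markers, as it called no gene, and 25 were lower and 3 higher at an unadjusted p under 0.05, against 8.9% and 7.87% of all genes. Over the 7 libraries it called 5 of 82, against 1.22% of all genes, all 5 lower in homozygous libraries: the neurofilament genes Nefm (-0.89) and Nefl (-0.53), the Schwann cell gene Dhh (-3.51), the fibroblast collagen gene Col3a1 (-2.33) and the microglial gene Tmem119 (-0.56). Schwann cell markers summed to 62.0 to 112 CPM in homozygous and 167 to 620 CPM in heterozygous libraries, and smooth muscle markers to 17.8 to 41.9 CPM and 42.2 to 61.5 CPM. Microglial markers summed to 248 to 309 CPM and 287 to 345 CPM, astrocyte markers to 3583 to 4386 CPM and 3924 to 4574 CPM, fibroblast markers to 83.8 to 138 CPM and 93.6 to 207 CPM, and red blood cell genes to 258 to 716 CPM and 186 to 468 CPM. All but the Schwann cell and smooth muscle sums overlapped between the groups, and no sum was tested. Their part in the chaperone levels was not tested.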
